A study of Mus musculus with 18 samples.

Results

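Wnt ligands and their feedback gene Axin2 were followed in 3 immortalised mouse embryonic fibroblast (MEF) lines, without treatment and after tumour necrosis factor alpha (TNF). The set holds 7 of the 55536 genes of the deposited count table, found by their symbols: Wnt4, Wnt5a, Wnt5b, Wnt9a, Wnt10b, Wnt11 and Axin2. The lines were wild type (WT), a knock-out of p65 (p65 KO) and a knock-out of IKK2 (IKK2 KO). The gene Rela makes p65, a subunit of the transcription factor NF-κB, and Ikbkb makes IKK2 (IKK beta), a kinase that marks the NF-κB inhibitors for breakdown. All 3 lines were grown in DMEM with 10% fetal bovine serum and each received no TNF, or 10 ng/ml TNF for 45 or 90 min. This gave 9 groups with 2 libraries each, which are called a and b here. Each genotype was represented by 1 immortalised line as far as the labels tell, so the genotype and the history of the line cannot be told apart. The labels number the libraries of a group but do not say that they came from separate cultures, so p-values measure the spread between these libraries, which may be technical.

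Wnt proteins are secreted, lipid-modified ligands. Some of them bind Frizzled receptors and LRP5 or LRP6, which halts the destruction complex of Axin, APC and GSK3, so that beta-catenin builds up and acts with TCF and LEF factors in the nucleus. Others, of which Wnt5a is the best known, mostly act through Frizzled, ROR and RYK receptors without beta-catenin. Axin2 is a scaffold of the destruction complex and is itself switched on by beta-catenin with TCF and LEF in many tissues, which makes it a widely used readout of this branch. In fibroblasts, Wnt signals are known for roles in matrix production, migration and limb and skin patterning.

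The members lie on different chromosomes of GRCm38, apart from Wnt9a and Axin2, which share chromosome 11. Wnt4 (ENSMUSG00000036856) spans 137277489 to 137299726 on chromosome 4, and Wnt5a (ENSMUSG00000021994) spans 28504750 to 28527448 on chromosome 14. Wnt5b (ENSMUSG00000030170) spans 119432531 to 119544347 on chromosome 6, and Wnt9a (ENSMUSG00000000126) spans 59306928 to 59333552 on chromosome 11. Wnt10b (ENSMUSG00000022996) spans 98770712 to 98778150 on chromosome 15, Wnt11 (ENSMUSG00000015957) spans 98835112 to 98855195 on chromosome 7, and Axin2 (ENSMUSG00000000142) spans 108920349 to 108950783 on chromosome 11. Wnt5b and Wnt10b lie on the minus strand and the other members on the plus strand. The exons of Wnt5a overlap the antisense gene Gm2670, which had 0 to 15 counts per library. The overlapping antisense gene of Axin2 (Gm11670) and the pseudogene that overlaps Wnt11 (Gm8398) had 0 counts in every library, and Fbxl14, opposite Wnt5b, shared no exon with it.

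Promoters of 6 of the 7 members were in the RefSeq set of GRCm38.p6, each from 250 bases before to 50 after a start. The 4 below belong to the members with the largest differences: Wnt11, the one member that rose after TNF, Wnt4 and Wnt5b, which were high in 1 line together, and Axin2, which was high in another. They are written 5′ to 3′ on the strand of the gene. Capitals mark a match on either strand to the TCF/LEF core CTTTGA or to the AP-1 site TGANTCA, and matches of different motifs did not overlap.
Wnt11, the first of its 2 promoters (chr7:98834862-98835161, plus strand): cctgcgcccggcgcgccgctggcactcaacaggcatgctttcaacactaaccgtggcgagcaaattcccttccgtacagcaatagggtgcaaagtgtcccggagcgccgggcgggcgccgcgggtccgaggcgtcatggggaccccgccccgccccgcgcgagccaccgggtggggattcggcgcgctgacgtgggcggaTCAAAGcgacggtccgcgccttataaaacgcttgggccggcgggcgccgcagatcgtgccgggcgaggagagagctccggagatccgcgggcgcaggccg
Wnt4 (chr4:137277385-137277684, plus strand): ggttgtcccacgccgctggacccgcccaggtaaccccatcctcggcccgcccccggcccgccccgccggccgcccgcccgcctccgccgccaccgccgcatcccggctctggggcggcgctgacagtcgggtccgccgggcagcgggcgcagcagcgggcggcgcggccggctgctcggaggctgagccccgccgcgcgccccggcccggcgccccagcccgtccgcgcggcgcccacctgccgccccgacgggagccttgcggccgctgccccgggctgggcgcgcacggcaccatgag
Wnt5b, the first of its 3 promoters (chr6:119544298-119544597, minus strand): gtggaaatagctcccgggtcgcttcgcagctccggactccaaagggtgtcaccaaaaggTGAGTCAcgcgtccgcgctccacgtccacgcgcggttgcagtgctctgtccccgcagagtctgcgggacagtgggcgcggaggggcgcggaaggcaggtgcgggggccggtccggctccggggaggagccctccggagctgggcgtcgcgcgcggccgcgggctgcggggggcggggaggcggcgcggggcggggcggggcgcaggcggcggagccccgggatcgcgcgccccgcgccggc
Axin2 (chr11:108920099-108920398, plus strand): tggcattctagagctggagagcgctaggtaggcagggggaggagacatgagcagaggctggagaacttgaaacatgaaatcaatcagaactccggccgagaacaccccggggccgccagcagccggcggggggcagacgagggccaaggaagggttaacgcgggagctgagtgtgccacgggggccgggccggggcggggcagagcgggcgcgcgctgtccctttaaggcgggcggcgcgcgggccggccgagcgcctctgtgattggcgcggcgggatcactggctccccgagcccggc
All 4 windows were rich in G and C, at 71.3% for Wnt11, 84.3% for Wnt4, 78.0% for Wnt5b and 70.0% for Axin2, where the median over 32851 promoters was 52.7%. The first window of Wnt11 held the TCF/LEF core as TCAAAG, its reverse complement, 50 bases before the start, and 16% of all promoter windows held this core. The second Wnt11 window, with 59.3% G and C, held no match, and the third window of Wnt5b held the core 71 bases before its start. The first window of Wnt5b held an AP-1 site 191 bases before the start, a motif present in 7.81% of all windows. The windows of Wnt4 and Axin2 held none of these letters. The κB consensus, found in 8.46% of all windows, matched in none of the 4, and among the members it matched only in the window of Wnt10b, at 204 and 40 bases before the start. A match is a description of the letters and not a bound site.

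Library totals ran from 16.7 to 23.5 M counts, and levels are given as CPM, the count of a gene for each 1 M counts of the scaled library total. Rela stood at 63.8 ± 0.879 CPM (SD, n = 2) in untreated WT cells and 5.68 ± 0.606 in untreated p65 KO cells. Ikbkb was at 59.9 ± 0.76 CPM in WT, 42.7 ± 0.0141 in p65 KO and 43.4 ± 0.371 in IKK2 KO, so a whole-gene count did not separate the IKK2 KO label from the p65 KO line. Nfkbia, which encodes the NF-κB inhibitor IκB alpha, went from 15.4 to 372 CPM in 45 min of TNF in WT, from 33.3 to 54.8 in p65 KO and from 41.4 to 186 in IKK2 KO. Of 12 fibroblast markers, 10 reached 1 CPM in WT and p65 KO and 11 in IKK2 KO, with a summed level of 11100 to 11500 CPM in WT, 4880 to 5020 in p65 KO and 11000 to 11500 in IKK2 KO. Markers of epithelial, endothelial, myeloid, muscle and adipocyte cells summed to 3.23 CPM or less per list in every library. Neural markers summed to 464 to 573 CPM in WT, 203 to 221 in p65 KO and 332 to 369 in IKK2 KO, with Tubb3, Nes and Sox2 above 1 CPM in each line and Sox10 at 0 in WT and p65 KO. The fibroblast and neural sums also differed between the lines, and their part in the line differences of the members was not tested. In bulk RNA, fewer cells that express a gene and less RNA per cell cannot be told apart.

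Each line had its own set of Wnt ligands, and TNF moved few of them. Wnt4 and Wnt5b were high in p65 KO, Axin2 and Wnt9a were highest in IKK2 KO, and Wnt5a stood at 17.9 to 22.8 CPM in WT, 18.6 to 22.2 in p65 KO and 4.06 to 6.73 in IKK2 KO. Wnt11 was scarce in IKK2 KO and was the one member that rose after TNF, in WT at 90 min. Wnt10b was near the limit of counting everywhere. The tests are edgeR's quasi-likelihood tests with Benjamini-Hochberg adjustment over 16322 genes, and a change is called at an adjusted p under 0.05.

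**Figure D1:**
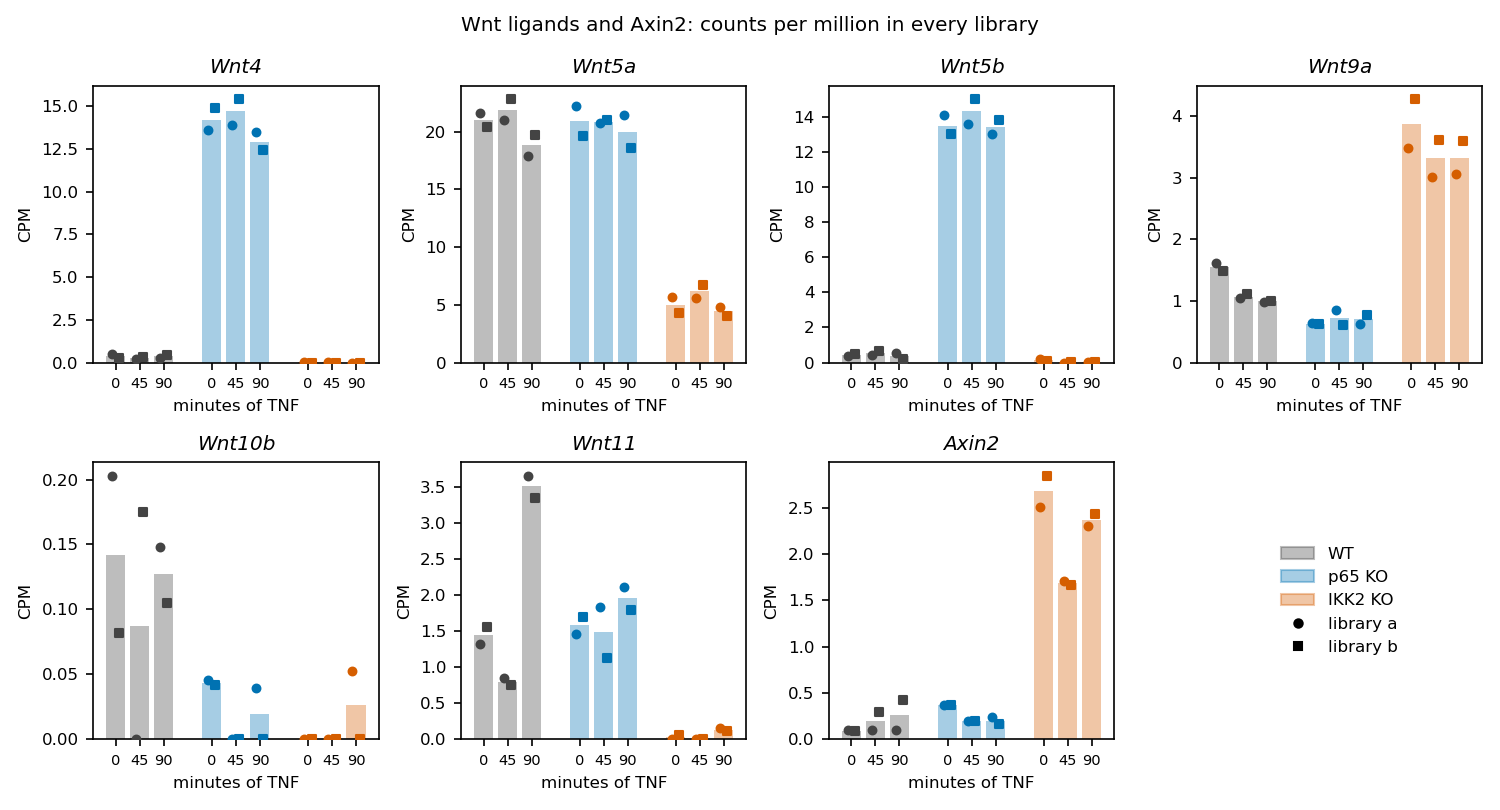
Level (CPM) of the 7 genes in each of 18 libraries, by line and minutes of TNF; bars are means of 2 libraries, circles library a and squares library b, and each panel has its own scale from 0. Wnt4 and Wnt5b stand at 12.4 to 15.4 CPM in p65 KO and below 1 CPM in the other lines, Axin2 at 1.67 to 2.85 CPM in IKK2 KO, and Wnt11 in WT at 3.35 and 3.66 CPM after 90 min of TNF.

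Wnt11, a ligand known for convergent extension and kidney branching through pathways that need no beta-catenin, was the one member that rose after TNF in a called comparison. In WT it stood at 1.32 and 1.56 CPM untreated, 0.842 and 0.757 after 45 min, and 3.66 and 3.35 after 90 min. No 2 of these 3 WT groups overlapped, with the lowest values at 45 min and the highest at 90 min. On the log2 scale, the level at 90 min was above the untreated level by 1.27 ± 0.21 (SE; adjusted p = 1.1e-05), a 2.41-fold rise, and above that at 45 min by 2.12 ± 0.25 (adjusted p = 9.1e-09), a 4.35-fold rise. At 45 min the change from untreated was -0.85 ± 0.30 with an unadjusted p of 0.0076 and an adjusted p of 0.059, which missed the threshold. These values rest on 64, 30 and 138 counts over the libraries of each group.

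In the p65 KO line, untreated Wnt11 libraries overlapped those of WT, and no TNF change of Wnt11 was called. Its libraries stood at 1.46 and 1.70 CPM untreated, 1.84 and 1.13 at 45 min, and 2.11 and 1.80 at 90 min. The groups at 45 min overlapped both others, and the 90 min libraries lay above the untreated ones. The change at 90 min was 0.30 ± 0.22 (adjusted p = 0.5) and was not called. The difference between the p65 KO and WT responses at 90 min was -0.97 ± 0.31 with an unadjusted p of 0.0029 and an adjusted p of 0.053. This just missed the threshold, and with only the libraries compared in the fit it was -0.96 with an adjusted p of 0.04. At 45 min the difference of responses was 0.72 ± 0.39 (adjusted p = 0.34).

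Wnt11 was nearly absent from IKK2 KO cells. Its counts were 0 and 1 untreated, 0 and 0 at 45 min, and 3 and 2 at 90 min, or 6 counts over 6 libraries. Untreated WT cells held 64 counts against 1 in IKK2 KO, a ratio of 48.9 with a 95% counting interval of 8.47 to 1960. The p65 KO line held 73 counts against 1, a ratio of 53.5 (9.3 to 2140). Both differences were called (adjusted p = 1.5e-09 and 3.7e-10). Wnt11 passed the filter on low counts without any IKK2 KO library, so these p-values are descriptions. The 5 counts at 90 min against 0 at 45 min gave a ratio of 1.56, with 3 counts over the group as the floor for a count of 0. This ratio leaves out the counting error of the 5 counts, and the change was not called (adjusted p = 0.069). Intervals cover counting error only, and a floor covers it for the lower group alone.

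**Figure D2:**
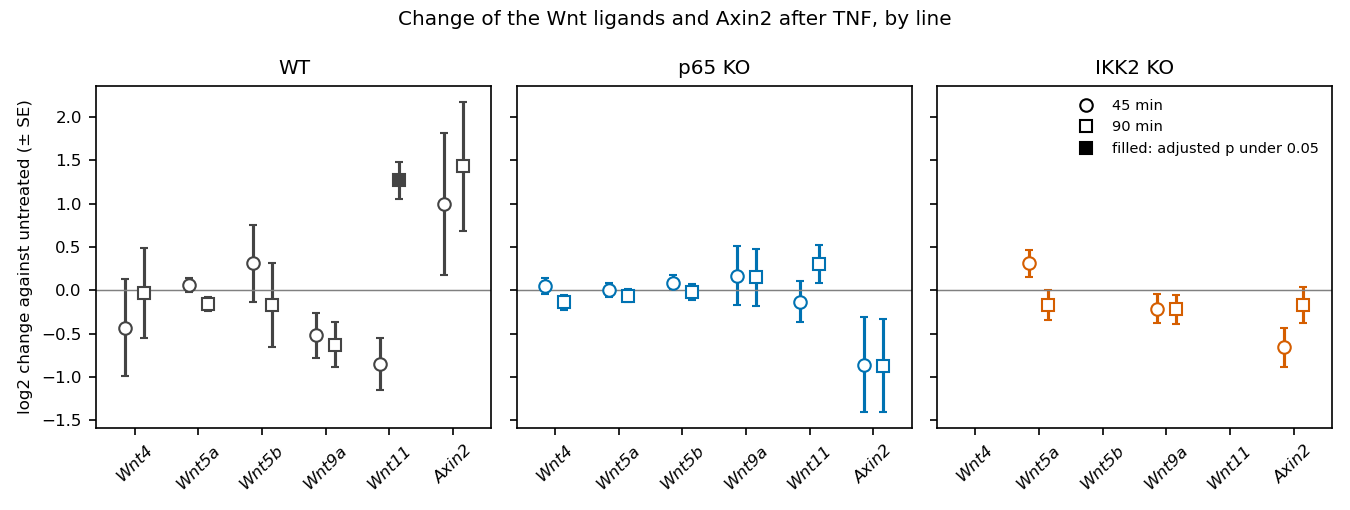
Fitted log2 change against untreated cells of the same line after 45 min (circles) and 90 min (squares) of TNF, with standard errors, for members with more than 3 counts in both groups; filled symbols have an adjusted p under 0.05. Wnt11 in WT at 90 min, at 1.27 ± 0.21, is the one filled symbol; Wnt4, Wnt5b and Wnt11 are not drawn in IKK2 KO, where a group had 3 counts or fewer.

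Wnt5a, the main ligand of the branch that works without beta-catenin, was the member with most counts in each line. Its libraries stood at 21.6 and 20.4 CPM in untreated WT, 21 and 22.8 at 45 min and 17.9 and 19.7 at 90 min. In p65 KO they stood at 22.2 and 19.6 untreated, 20.7 and 21 at 45 min and 21.4 and 18.6 at 90 min. The untreated WT and p65 KO groups overlapped, and their difference was smaller than its standard error. Across the order of the 6 groups of these lines, each group overlapped the next. Within WT, however, the 90 min libraries lay below the untreated and the 45 min ones without overlap.

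In IKK2 KO the level of Wnt5a was lower in every library. It stood at 5.70 and 4.27 CPM untreated, 5.61 and 6.73 at 45 min and 4.83 and 4.06 at 90 min. Untreated IKK2 KO cells differed from WT by -2.06 ± 0.12 (log2; adjusted p = 7.3e-20), a 4.17-fold lower level, and from p65 KO by -2.05 ± 0.12 (adjusted p = 6.7e-20). No library of IKK2 KO reached any library of the other lines.

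The TNF changes of Wnt5a were small. In WT the change at 90 min from untreated was -0.16 ± 0.08 (adjusted p = 0.29), and the change from 45 to 90 min was -0.22 ± 0.08 (adjusted p = 0.077). In IKK2 KO the change at 45 min was 0.31 ± 0.16 (adjusted p = 0.29), and the level fell from 45 to 90 min (-0.48 ± 0.16, adjusted p = 0.033). That call was lost without library b at 45 min (-0.33, adjusted p = 0.35) and without library b at 90 min (-0.36, adjusted p = 0.27).

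Wnt4, a ligand known from kidney, gonad and mammary development, was a p65 KO gene in these lines. Its libraries stood at 13.6 and 14.9 CPM in untreated p65 KO, 13.9 and 15.4 at 45 min and 13.5 and 12.4 at 90 min. In WT they stood at 0.507 and 0.246 untreated, 0.198 and 0.349 at 45 min and 0.297 and 0.419 at 90 min. The untreated p65 KO cells were above WT by 5.27 ± 0.20 (adjusted p = 5.2e-26), a 38.7-fold difference that rests on 16 counts in WT. Wnt4 passed the filter on low counts through p65 KO, so its p-values for p65 KO against other lines are descriptions. IKK2 KO held 2 counts of Wnt4 in 6 libraries.

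Between untreated lines, 1 count of Wnt4 in IKK2 KO stood against 16 in WT, a ratio of 12.2 (95% counting interval 1.9 to 513, adjusted p = 0.0018), and against 656 in p65 KO, a ratio of 481 (86 to 19000, adjusted p = 1.9e-25). TNF gave no called change of Wnt4 in any line. In p65 KO, the change from 45 to 90 min was -0.19 ± 0.09 with an unadjusted p of 0.037 and an adjusted p of 0.32, and that at 90 min from untreated was -0.14 ± 0.09 (adjusted p = 0.41). In the order of groups, the 90 min p65 KO libraries lay below the untreated ones without overlap, and all p65 KO libraries lay above all others.

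Wnt5b, a close relative of Wnt5a, followed the same order of lines as Wnt4. It stood at 14.1 and 13.0 CPM in untreated p65 KO, 13.6 and 15 at 45 min and 13.0 and 13.8 at 90 min. WT libraries stood at 0.355 and 0.493 untreated, 0.446 and 0.641 at 45 min and 0.544 and 0.209 at 90 min. The p65 KO groups overlapped each other and so did the WT groups, while the highest WT library stood at 0.641 CPM and the lowest p65 KO library at 13.0. Untreated p65 KO cells were above WT by 4.95 ± 0.19 (adjusted p = 7.2e-26), a 30.9-fold difference.

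IKK2 KO held 8 counts of Wnt5b in 6 libraries, 4 and 1 of them untreated. Wnt5b passed the filter on low counts without any IKK2 KO library, so its p-values for IKK2 KO against other lines are descriptions. The untreated difference from p65 KO was -6.45 ± 0.26 (adjusted p = 4.4e-25), and -7.64 or -5.86 without library a or b of untreated IKK2 KO. The difference from WT was -1.50 ± 0.64 (adjusted p = 0.033), and this call was fragile. It was lost without library b of untreated WT (-1.22, adjusted p = 0.18), without library b of untreated IKK2 KO (-0.90, adjusted p = 0.27), without the filter on low counts (-1.49, adjusted p = 0.052) and with DESeq2 (-1.56, adjusted p = 0.054). No TNF comparison of Wnt5b was called.

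Wnt9a, a ligand known from joint and skeletal development, had the reverse order of lines. Its libraries stood at 3.48 and 4.27 CPM in untreated IKK2 KO, 3.01 and 3.61 at 45 min and 3.05 and 3.59 at 90 min. In WT they stood at 1.62 and 1.48 untreated, 1.04 and 1.11 at 45 min and 0.990 and 0.994 at 90 min. In p65 KO they stood at 0.639 and 0.623 untreated, 0.847 and 0.604 at 45 min and 0.626 and 0.778 at 90 min. The 3 lines did not overlap in any library, with IKK2 KO highest and p65 KO lowest.

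Untreated IKK2 KO cells were above WT in Wnt9a by 1.32 ± 0.19 (adjusted p = 8.9e-08), a 2.5-fold difference, and above p65 KO by 2.60 ± 0.24 (adjusted p = 3.7e-13), while p65 KO was lower than WT, with a log2 difference of -1.28 ± 0.28 (adjusted p = 8e-05). In WT the untreated libraries lay above those of both TNF times. The change was -0.52 ± 0.26 at 45 min (adjusted p = 0.26) and -0.63 ± 0.26 at 90 min (unadjusted p = 0.025, adjusted p = 0.16), on 68, 40 and 39 counts, and neither was called. The responses of the knock-out lines differed from that of WT by 0.70 ± 0.43 (p65 KO, 45 min, adjusted p = 0.46), 0.78 ± 0.43 (p65 KO, 90 min, adjusted p = 0.41) and 0.42 ± 0.31 (IKK2 KO, 90 min, adjusted p = 0.72), none of them called.

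Wnt10b, a ligand of the beta-catenin branch known for bone formation and for holding back fat cell differentiation, had 18 counts in the 18 libraries. WT held 14 of these counts, p65 KO 3 and IKK2 KO 1. It was not tested, since no library reached the 0.498 CPM of the filter. In untreated cells the 6 counts of WT stood against 2 in p65 KO, a ratio of 3.13 (95% counting interval 0.56 to 31.7). Against 0 in IKK2 KO the ratio was 1.53, with a floor of 3 counts for the 0. That ratio leaves out the counting error of the 6 counts. In untreated cells, a difference from WT was not detectable at this depth for p65 KO, and for IKK2 KO it was not tested. The 14, 3 and 1 counts over the 6 libraries of each line were not compared by a test.

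Axin2, the destruction complex scaffold and beta-catenin feedback gene, was an IKK2 KO gene in these lines. Its libraries stood at 2.51 and 2.85 CPM in untreated IKK2 KO, 1.71 and 1.67 at 45 min and 2.31 and 2.43 at 90 min. In WT they stood at 0.101 and 0.0821 untreated, 0.0991 and 0.291 at 45 min and 0.0990 and 0.419 at 90 min. In p65 KO they stood at 0.365 and 0.374 untreated, 0.199 and 0.201 at 45 min and 0.235 and 0.164 at 90 min. Every IKK2 KO library lay above every other library, while the WT and p65 KO groups overlapped in part.

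Untreated IKK2 KO cells were above WT in Axin2 by 4.79 ± 0.42 (adjusted p = 1.4e-13), a 27.6-fold difference that rests on 90 counts against 4, and above p65 KO by 2.83 ± 0.31 (adjusted p = 5.8e-11). Axin2 passed the filter on low counts through IKK2 KO alone, so its p-values for IKK2 KO against other lines are descriptions. Untreated p65 KO cells were above WT by 1.96 ± 0.67 (adjusted p = 0.0075), on 17 counts against 4, and without library b of untreated WT the call was lost (1.81, adjusted p = 0.057). In IKK2 KO the 45 min libraries of Axin2 lay below both other times. The change at 45 min was -0.66 ± 0.23 (unadjusted p = 0.0068, adjusted p = 0.069) and that from 45 to 90 min 0.49 ± 0.23 (unadjusted p = 0.042, adjusted p = 0.17), and neither was called.

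The TNF changes of Axin2 in WT and p65 KO rest on few counts. They were 1.0 ± 0.82 at 45 min (adjusted p = 0.56) and 1.43 ± 0.75 at 90 min (adjusted p = 0.3) in WT, and -0.86 ± 0.55 (adjusted p = 0.56) and -0.87 ± 0.54 (adjusted p = 0.41) in p65 KO. The responses of p65 KO and WT differed by -2.29 ± 0.93 at 90 min (unadjusted p = 0.017, adjusted p = 0.17), which was not called. The WT values moved with single libraries. Without library b at 45 min the 45 min change was 0.12, and without library a it was 1.62. Without library b at 90 min the 90 min change was 0.12 and the difference of responses -0.98 (adjusted p = 0.83), and without library a they were 2.13 and -3.0 (adjusted p = 0.064).

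Counted over the 6 members that were tested, TNF gave 1 call in WT at 90 min against untreated (Wnt11), 1 in WT from 45 to 90 min (Wnt11) and 1 in IKK2 KO from 45 to 90 min (Wnt5a), where 9.32%, 14.3% and 15.7% of all tested genes were called. The other TNF comparisons called 0 members. Across all tested genes these called 12.2% in WT at 45 min, 1.66% in p65 KO at 45 min, 6.48% in p65 KO at 90 min, 2.73% in p65 KO from 45 to 90 min, 8.76% in IKK2 KO at 45 min and 4.48% in IKK2 KO at 90 min. At an unadjusted p under 0.05 edgeR gave 1 member in WT at 45 min (Wnt11), 1 in p65 KO from 45 to 90 min (Wnt4), 1 in IKK2 KO at 45 min (Axin2) and 0 in the others, and DESeq2, which gave no adjusted p for up to 5 of the members, called 0 in all of them. The shares of members called after TNF were near those of all genes.

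Differences of response between a knock-out line and WT called 0 members. Over all tested genes they called 7.08% for p65 KO at 45 min, 5.39% for p65 KO at 90 min, 4.86% for IKK2 KO at 45 min and 2.35% for IKK2 KO at 90 min. At an unadjusted p under 0.05 edgeR gave 2 members for p65 KO at 90 min (Wnt11 and Axin2), 1 for IKK2 KO at 90 min (Axin2) and 0 for both knock-out lines at 45 min, and DESeq2 called 0. The comparisons with WT share the WT libraries.

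Between untreated lines, most genes differed. Against WT, 4 of 6 members were called in p65 KO (Wnt4, Wnt5b and Axin2 higher, Wnt9a lower), where 80.8% of all tested genes were, and 6 of 6 in IKK2 KO (Wnt9a and Axin2 higher), where 74.3% were. Between the knock-out lines 6 of 6 were called (Wnt9a and Axin2 higher in IKK2 KO) beside 72.4% of all genes. With a difference of at least 4-fold as well, the counts were 2 of 6 in p65 KO against WT beside 17.4% of all genes, 4 of 6 in IKK2 KO against WT beside 13.1%, and 6 of 6 between the knock-out lines beside 13.7%. Axin2 passed the filter on low counts through IKK2 KO alone. Wnt4 passed it through p65 KO, with 1 WT library and 0 IKK2 KO libraries at the cutoff. Wnt5b and Wnt11 passed it without a single IKK2 KO library at the cutoff. A gene that passes in this way has to differ between lines, so these counts and the p-values behind them are descriptions.

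Per kilobase of exon, the scale on which genes can be set side by side, each line had another leading ligand. All 19 Wnt ligand genes were in the table and 8 of them were tested. In untreated WT, Wnt10a led at 15.2 ± 0.821 CPM per kb, followed by Wnt5a at 2.68 ± 0.113 and Wnt6 at 0.69 ± 0.235. In untreated p65 KO, Wnt5b led at 5.1 ± 0.282, followed by Wnt4 at 3.39 ± 0.214 and Wnt5a at 2.67 ± 0.233. In untreated IKK2 KO, Wnt7b led at 38.6 ± 0.993, followed by Wnt9a at 1.16 ± 0.169 and Wnt5a at 0.637 ± 0.129.

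Wnt5a was thus the one member among the first 3 ligands of all 3 untreated lines. The leaders outside the set were also missing from another line. Wnt10a had 1645 counts in untreated WT and 0 in untreated IKK2 KO, at least 419-fold lower, and Wnt7b had 6362 counts in untreated IKK2 KO and 0 in untreated p65 KO, at least 2890-fold lower. After 90 min of TNF in WT, Wnt11 reached 0.847 ± 0.0533 CPM per kb and ranked behind Wnt10a and Wnt5a alone. Wnt10a, a ligand of the beta-catenin branch, rose there by 0.31 ± 0.06 (adjusted p = 6.4e-05; 0.053 with DESeq2).

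**Figure D3:**
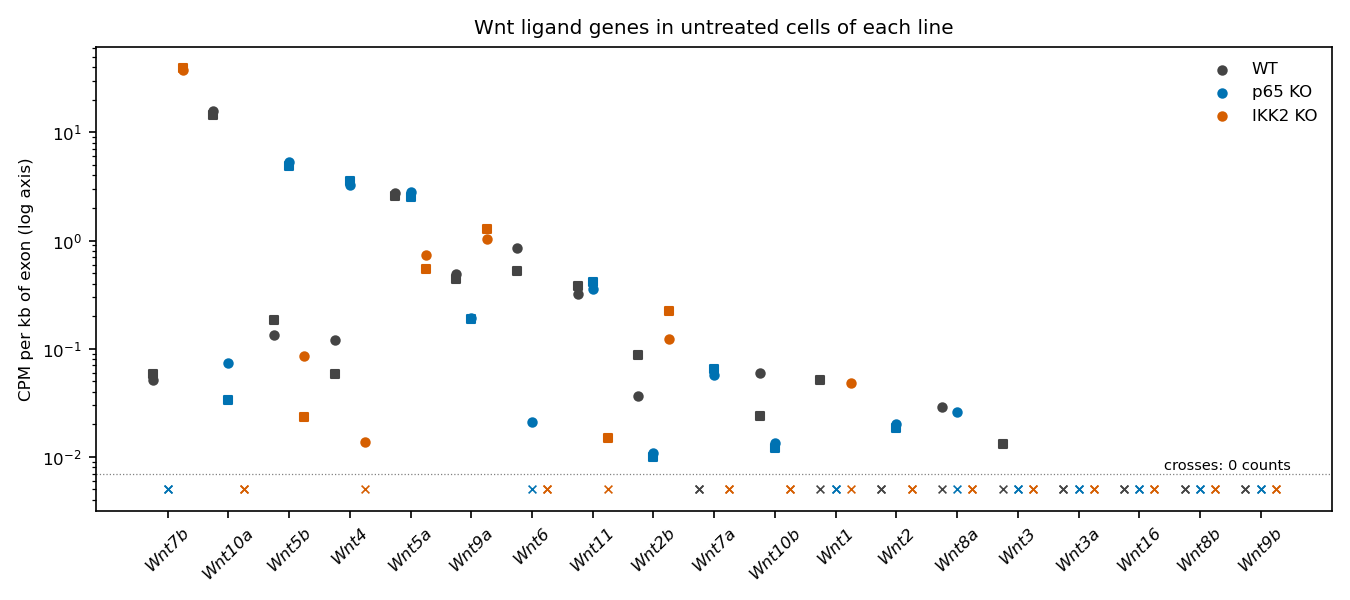
CPM per kilobase of exon (log axis) of the 19 Wnt ligand genes in untreated cells, circles library a and squares library b, with crosses below the dotted line for libraries at 0 counts. Wnt7b leads in IKK2 KO, Wnt10a in WT, and Wnt5b and Wnt4 in p65 KO, while Wnt5a is present in all 3 lines.

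Among 11182 genes, those most like Wnt11 over the 18 libraries, after the mean of each line was subtracted from log2 CPM, were Csnk1e (Pearson r = 0.921), Heatr5a (0.916) and Prag1 (0.916). Csnk1e encodes casein kinase 1 epsilon. The libraries of a group share their treatment, so r is a description. These genes were picked for a pattern like that of Wnt11 in the same libraries, so their p-values are descriptions too. Prag1 in WT stood at 21 ± 0.63 CPM untreated, 14.5 ± 0.185 at 45 min and 29.6 ± 0.767 at 90 min. Its response in p65 KO differed from WT by 0.47 ± 0.09 at 45 min (adjusted p = 0.0002) and by -0.50 ± 0.08 at 90 min (adjusted p = 1.5e-05). For Csnk1e this difference was called at 45 min (0.25 ± 0.06, adjusted p = 0.0018) but not at 90 min (-0.04 ± 0.05, adjusted p = 0.77). For Heatr5a neither was called (0.08 ± 0.05, adjusted p = 0.37, and -0.1 ± 0.05, adjusted p = 0.23). In IKK2 KO, Prag1 rose by 0.58 ± 0.05 at 90 min (adjusted p = 5.3e-11). Without the subtraction the line differences dominate, and r was -0.044 for Csnk1e, 0.242 for Heatr5a and -0.129 for Prag1.

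The rest of the pathway was read through 8 lists of 89 genes, of which 62 were tested. In WT, 3 rose and 10 fell at 45 min (21% of those tested), 5 rose and 11 fell at 90 min (25.8%), and 13 rose and 9 fell from 45 to 90 min (35.5%), next to the shares of all genes given above. In p65 KO, 1 rose and 0 fell at 45 min (1.61%), 3 rose and 3 fell at 90 min (9.68%), and 0 rose and 2 fell from 45 to 90 min (3.23%). In IKK2 KO, 6 rose and 8 fell at 45 min (22.6%), 3 rose and 4 fell at 90 min (11.3%), and 7 rose and 11 fell from 45 to 90 min (29.0%). The median log2 change over the 62 genes was -0.02 in WT at 45 min and -0.07 at 90 min.

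Among receptors and co-receptors, 4 of 14 tested fell and 0 rose in WT at 45 min (28.6%), and 6 fell and 0 rose at 90 min (42.9%). Of all tested genes, 12.2% were called at 45 min and 9.32% at 90 min. Fzd5 fell from 70.5 ± 1.78 to 30.5 ± 0.295 CPM at 45 min (-1.21 ± 0.05, adjusted p = 4.6e-23) and stood at 61.4 ± 1.74 at 90 min. Fzd7 fell from 185 ± 5.0 to 125 ± 1.95 CPM at 45 min (-0.56 ± 0.03, adjusted p = 3.3e-18). Both encode Frizzled receptors. Fzd2, another Frizzled gene, was lower at 90 min (-0.38 ± 0.07, adjusted p = 7.7e-05).

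Among 12 nuclear effectors, 1 rose and 4 fell in WT at 45 min (41.7%, beside 12.2% of all tested genes). Lef1, which encodes a DNA-binding partner of beta-catenin, stood at 12.6 and 10.5 CPM untreated, 3.96 and 4.60 at 45 min and 10.4 and 10.1 at 90 min. It fell by 1.43 ± 0.12 (log2) at 45 min (adjusted p = 5.8e-13) and rose by 1.27 ± 0.13 from there to 90 min (adjusted p = 7.2e-11), so Lef1 and Wnt11 both had their lowest WT level at 45 min. In p65 KO, Lef1 stayed between 4.87 and 5.44 CPM, and its 45 min response differed from WT by 1.48 ± 0.18 (adjusted p = 2.5e-08). In IKK2 KO, Lef1 did not fall at 45 min either, with 18.5 and 19.9 CPM untreated and 20.0 and 20.8 at 45 min. That response differed from WT by 1.52 ± 0.15 (adjusted p = 9e-11). Tcf7, a relative of Lef1, fell by 0.79 ± 0.23 in WT at 45 min (adjusted p = 0.018), a call lost without library b of untreated WT (adjusted p = 0.17), without library b at 45 min (adjusted p = 0.29) and with DESeq2 (adjusted p = 0.059).

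Of 8 tested target genes other than Axin2, 2 rose and 0 fell in WT at 45 min, beside 12.2% of all tested genes called. At 90 min 3 of the 8 rose and 0 fell, beside 9.32% of all tested genes. Ccn4, a matricellular protein gene, rose from 13.5 ± 0.273 to 20.7 ± 0.472 CPM at 90 min (0.63 ± 0.08, adjusted p = 2.4e-08). Cd44, the hyaluronan receptor gene, rose by 0.29 ± 0.03 (adjusted p = 2.5e-12). In IKK2 KO at 45 min, 3 of the 8 target genes rose and 2 fell, beside 8.76% of all tested genes called. Myc, the growth regulator, rose in IKK2 KO from 464 ± 4.16 to 967 ± 42.1 CPM at 45 min (1.06 ± 0.03, adjusted p = 9.7e-31). It fell back to 521 ± 10.2 CPM at 90 min (-0.89 ± 0.03 from 45 min, adjusted p = 3.6e-28). The target gene Bambi fell in IKK2 KO at 45 min (-0.44 ± 0.1, adjusted p = 0.003). Axin2 was at its lowest there at 45 min, but its change was not called (adjusted p = 0.069). Of 13 cytoplasmic transducers and destruction complex genes, 0 rose and 1 fell in WT at 45 min (7.69%, beside 12.2% of all tested genes). Ctnnb1, which encodes beta-catenin, had group means between 392 and 431 CPM in all 9 groups.

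**Figure D4:**
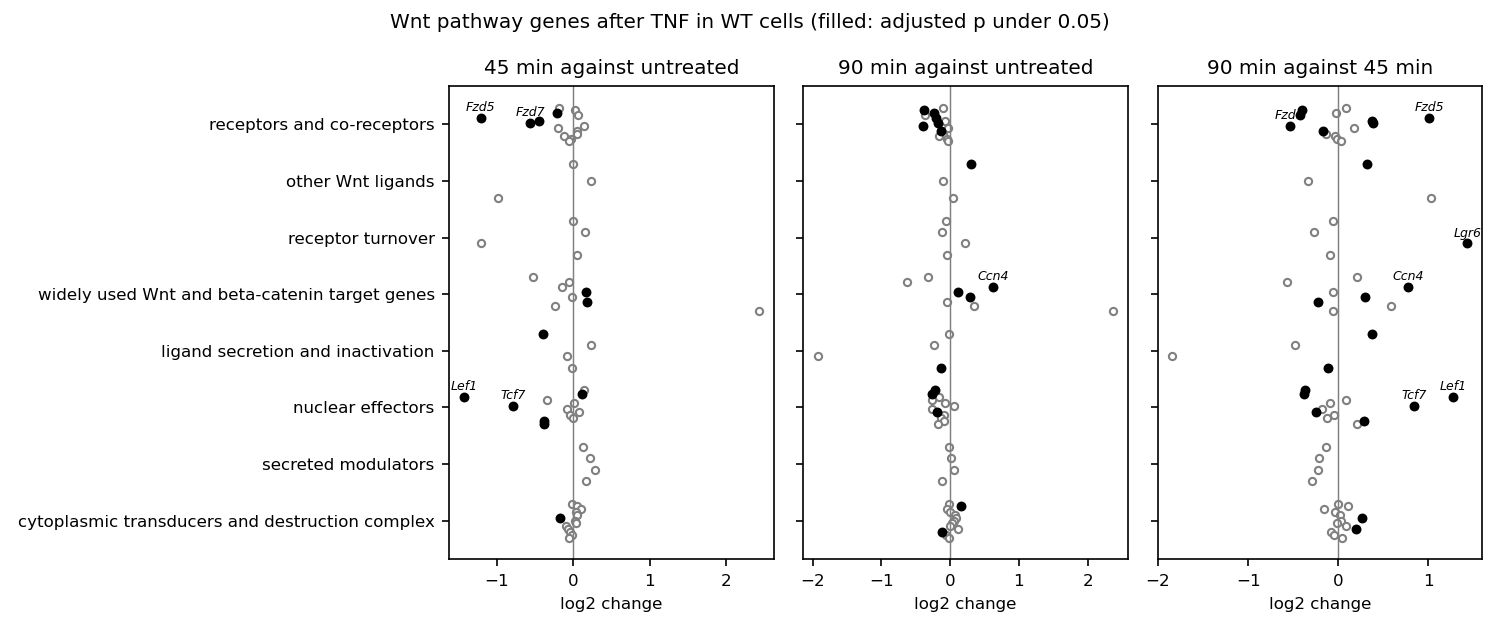
Log2 change of 62 tested Wnt pathway genes in WT cells, 1 row of points per list, for 45 min against untreated, 90 min against untreated and 90 against 45 min of TNF; filled points have an adjusted p under 0.05, and those past 0.5 on the log2 scale are named. Fzd5, Fzd7, Lef1 and Tcf7 lie to the left at 45 min, and Lef1, Tcf7 and Fzd5 to the right from 45 to 90 min.

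Between untreated lines, most pathway genes differed, as most genes did. In p65 KO against WT, 26 of 62 were higher and 30 lower (90.3%, beside 80.8% of all tested genes). In IKK2 KO against WT, 32 were higher and 25 lower (91.9%, beside 74.3%). Other target genes stood high in IKK2 KO next to Axin2: Apcdd1, which encodes a Wnt inhibitor, was at 82.2 ± 0.84 CPM against 2.17 ± 0.163 in WT (5.25 ± 0.09, adjusted p = 1.1e-39), and Bambi, which encodes a decoy receptor of the TGF-beta family, at 14.9 ± 0.784 against 0.759 ± 0.145 (4.30 ± 0.18, adjusted p = 9.9e-25). Of the 8 tested target genes, 5 were higher and 2 lower in IKK2 KO than in WT (87.5%, beside 74.3% of all tested genes). The lower ones were Ccnd1, at 423 ± 4.81 against 1040 ± 14.2 CPM in WT (-1.30 ± 0.02, adjusted p = 2.3e-37), and Cd44. Cd44 stood at 392 ± 4.65 against 581 ± 5.7 CPM (-0.57 ± 0.03, adjusted p = 6.7e-23). Lgr6, a receptor for R-spondins, was at 80.3 ± 0.995 CPM in IKK2 KO and 0.576 ± 0.118 in WT (7.13 ± 0.12, adjusted p = 9.2e-40).

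Of 14 secreted inhibitors and activators, 4 were tested. In untreated cells 1 was higher and 3 lower in p65 KO than in WT (80.8% of all tested genes were called there), and 1 was higher and 3 lower in IKK2 KO than in WT (74.3%). Sfrp1, which encodes a Wnt-binding inhibitor, stood at 10.0 ± 0.716 CPM in WT and 22.5 ± 0.176 in p65 KO and had 0 counts in untreated IKK2 KO, at least 113-fold lower than in WT. Dkk3, of the Dickkopf family, stood at 8.69 ± 0.269 CPM in WT, 20.2 ± 0.503 in IKK2 KO and 0.409 ± 0.127 in p65 KO. Rspo2, which encodes an R-spondin, had 360 counts in untreated WT against 2 in p65 KO, a ratio of 188 (95% counting interval 51.6 to 1560). Of the receptors, Ror1, which binds Wnt5a, had 100 counts in untreated WT against 1 in IKK2 KO, a ratio of 76.4 (13.4 to 3050), while Ror2, the related receptor that also binds Wnt5a, was higher in IKK2 KO than in WT, at 33.0 ± 2.97 against 11.5 ± 0.599 CPM untreated (1.52 ± 0.08, adjusted p = 9.5e-22), and stood at 18.6 ± 0.479 CPM in p65 KO. Fzd1 was lower in p65 KO than in WT, at 1.66 ± 0.234 against 26.3 ± 0.457 CPM (-3.99 ± 0.14, adjusted p = 6.7e-28), and Lrp5, a co-receptor gene, was higher there, at 45.3 ± 1.1 against 8.21 ± 1.51 CPM (2.48 ± 0.08, adjusted p = 2e-29).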

How the data were processed

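RNA was measured in 18 libraries of 9 groups. The deposited table holds expected counts per gene for 55536 genes, of which 31.8% of non-zero values are fractional; per the submitters' processing notes, HISAT2 and featureCounts (Subread 1.6.2) were used with GRCm38, beside FastQC 0.11.8, Trimmomatic and edgeR 3.26.4. Per the labels' protocols, the kit keeps strand and reads were paired, 76 bases each. Not given in the sources used here: the strand setting and how reads with several matches were handled. Column names give the group, and their library codes are in no label, so the libraries are called a and b.

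Values were rounded to whole counts. Genes passing filterByExpr (16322, losing 0.0601% of the counts) were scaled by TMM and tested with edgeR 4.0.16 (quasi-likelihood, all 18 libraries, 9 residual degrees of freedom, Benjamini-Hochberg adjustment within each of 16 comparisons). CPM uses TMM-scaled totals. Exon lengths and positions came from GENCODE M21 and promoters from RefSeq. Pairs of libraries were compared by chi-square (1.11 to 3.95 per degree of freedom), and none was a copied column. The check cannot tell whether the libraries of a pair came from the same RNA. The script was tested on simulated data. Alternatives were other size factors, no filter, DESeq2 1.42.0, only the libraries compared, and each library left out.

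The members and lists were chosen with earlier results of these data known. The members are named in every comparison. Of the pathway genes, up to 4 a direction with an adjusted p under 0.05, at least 2 CPM in the higher group and no overlap were eligible, and the text names some of these, mostly ones whose call held when a library was left out. The likest genes are the 3 with the highest centred correlation with a member called after TNF against untreated cells. Ctnnb1, Ror2, Lef1 levels in both knock-out lines, and the values of Sfrp1 and Dkk3 in further lines were given outside this rule, after they were seen. The same holds for Ccnd1 and Cd44 in untreated IKK2 KO.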

Additional observations from a re-analysis of the deposited data

Results flagged for a closer look

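Responses of each knock-out line were compared with WT. For the members no difference of response passed the threshold with all 18 libraries in the fit, the nearest being Wnt11 in p65 KO at 90 min (adjusted p = 0.053, and 0.04 with only the libraries compared). Those that follow are called genes of the Wnt pathway lists, up to 4 a direction for each difference by the naming rule. All differences are of log2 changes from untreated cells, knock-out line minus WT, with an adjusted p under 0.05 in edgeR's quasi-likelihood test. For p65 KO at 45 min they were 1.48 for Lef1, 1.29 for Fzd5, 0.47 for Fzd6, 0.46 for Fzd7 and -0.14 for Ccnd1. For p65 KO at 90 min they were 0.42 for Fzd5, 0.23 for Wls, 0.23 for Myc, 0.22 for Pygo2, -0.47 for Ccn4, -0.22 for Cd44 and -0.11 for Ccnd1. For IKK2 KO at 45 min they were 1.52 for Lef1, 0.96 for Fzd5, 0.88 for Myc, 0.78 for Apcdd1, -0.24 for Tle1 and -0.16 for Ccnd1. For IKK2 KO at 90 min they were 0.38 for Fzd5, 0.20 for Myc and -0.14 for Ccnd1. Without at least 1 of the libraries, the calls of Pygo2, Ccn4, Apcdd1 and Tle1 were lost, as were those of Ccnd1 other than in IKK2 KO at 45 min and those of Fzd5 and Myc in IKK2 KO at 90 min. The differences for both knock-out lines share the WT libraries.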

How the results depend on the processing

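Of 51 pairs of a member and a comparison for which a change was fitted and given, 417 of 428 alternative values kept direction and call, 7 lost the call and 2 gained it. For 45 other pairs no direction is given, since a group had 3 counts or fewer (15) or the change was within its standard error (30). Losses and gains stand beside the results, save Wnt5a in WT from 45 to 90 min, which was called with only the libraries compared (-0.23, adjusted p = 0.043). That setting called 2 members there and 1 in the 90 min difference of p65 KO from WT (Wnt11). It called 3 of the 4 in untreated p65 KO against WT and 4 of the 6 in IKK2 KO against WT, where Axin2, and Wnt4 with Wnt5b, were no longer tested. When libraries were left out, 2 uncalled changes reversed: Wnt5b in WT from 45 to 90 min ranged from -1.33 to 0.02, and Wnt5a in IKK2 KO at 90 min from -0.36 to 0.06. Members called in IKK2 KO from 45 to 90 min ranged from 0 to 1. The likeness to Wnt11 without centring was -0.044 for Csnk1e and -0.129 for Prag1.

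DESeq2 called fewer genes than edgeR: 1114 against 1988 in WT at 45 min, 844 against 1521 at 90 min and 1289 against 2334 from 45 to 90 min; in p65 KO 155 against 271, 435 against 1058 and 174 against 445; in IKK2 KO 811 against 1430, 408 against 732 and 1536 against 2566. For differences of response it called 691 against 1156 and 489 against 880 for p65 KO at 45 and 90 min, and 467 against 794 and 210 against 384 for IKK2 KO. With only the libraries compared, p65 KO at 45 min gave 533. Without 1 library the counts ranged from 97 to 186 in p65 KO at 45 min, 452 to 572 at 90 min and 164 to 226 from 45 to 90 min, 901 to 1179 in IKK2 KO at 45 min, 391 to 512 at 90 min, and 581 to 777 for the 90 min difference of p65 KO from WT. The cause was not tested.

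Of 100 named pathway changes, 31 lost their call under at least 1 of the alternatives and 0 reversed. Other size factors moved the median change by at most 0.022 on the log2 scale. No paired analysis was possible because the columns carry no replicate number. Counts limit most member results: Wnt10b, Axin2 outside IKK2 KO, and Wnt4, Wnt5b and Wnt11 in IKK2 KO rest on few reads per library.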
